A study of Homo sapiens with 6 samples.

Results

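The BCL2 family genes described here are 10 regulators of the mitochondrial pathway of cell death: Bcl2, Bcl2l1, Mcl1, Bak1, Bok, Bid, Bad, Bcl2l11, Bik and Bmf. They were taken by gene name from RNA sequencing tables of 53492 genes, each name stood on a single gene, and 9 of the 10 were among the 13231 genes with a mean of at least 1 FPKM that entered the test; Bik fell below that filter. FPKM is the number of fragments assigned to a gene, scaled by transcript length and library size. Levels of different genes can thus be set side by side, provided their reads aligned equally well. Polyadenylated RNA was sequenced in 6 libraries of cells labelled SH-SY5Y, a human neuroblastoma line: 3 from cells given the vector pCS2-eGFP-N, which carries green fluorescent protein (GFP), and 3 from cells given pCS2-eGFP-CCNB1IP1, which carries GFP joined to CCNB1IP1, a ubiquitin ligase that binds cyclin B1. The series title concerns human-specific expressed genes of the fetal brain. The comparison of the vectors asks which transcripts differ when GFP-CCNB1IP1 takes the place of GFP. Neither the time after transfection nor the share of cells that took up a vector was given in the sources used here. Nothing in the labels says that the replicates came from separate cultures, so p-values measure the spread between these libraries, which may be technical.

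Proteins of this family meet at the outer mitochondrial membrane. BCL2, BCL-xL (the long product of Bcl2l1) and MCL1 hold back permeabilization, BAK and its relative BAX form the pores that release cytochrome c, and BOK resembles the pore formers in its domains. The BH3-only proteins BID, BAD, BIM (from Bcl2l11), BIK and BMF carry signals of stress or lost growth support to the others, either by engaging the pore formers or by occupying the groove of the protective proteins. Developing sympathetic neurons are a classical setting for this pathway, because they die by it when growth factor is withdrawn. Much of the family is controlled after transcription, so transcript levels are not protein levels.

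All 53492 identifiers in the tables were those of mouse genes, and 0 matched a human gene table, although the labels name a human line. The values below are therefore those assigned to mouse genes, and the species of the reads was not tested. Whether reads of different genes aligned equally well was not tested either, which limits the order of levels between genes. Of 12 sympathoadrenal markers, 10 were at 1 FPKM or more in every library, while Dbh ranged from 0.371 to 1.14 FPKM. The mouse gene Ccnb1ip1 reached at most 0.191 FPKM in any library, and the introduced CCNB1IP1 and GFP sequences were not analysed here. The label of the GFP-CCNB1IP1 libraries was thus not checked by the targeted gene. The 1 gene called in the test was Gm20305, at 0 FPKM in every GFP library. It had 11.9, 8.29 and 21.2 FPKM in GFP-CCNB1IP1 replicates 1 to 3 (limma, adjusted p = 0.0126, and 0.171 when no genes were filtered). Whether its reads came from the introduced sequence was not tested. Depth relative to the GFP mean, read from the deposited confidence intervals, ranged from 0.951 to 1.06 except in GFP-CCNB1IP1 replicate 2, which was at 0.744. That library also stood apart in leukocyte genes: the summed level of 5 markers was 12.7 FPKM there and from 0.197 to 0.796 FPKM in the other 5 libraries. Lyz2, the lysozyme gene of myeloid cells, made up 11.1 FPKM of it, and Cd68 was at 1.47 and Ptprc at 0.111 FPKM.

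Across the family, transcript levels spanned from below 1 to over 50 FPKM. Bok was the highest, with 60.2 FPKM over the 6 libraries, above 91.7% of the genes tested. Mcl1 followed with 42.6, then Bad with 27.3, Bcl2l1 with 25.7, Bid with 14.9, Bak1 with 11.0, Bmf with 3.39, Bcl2l11 with 2.22, Bcl2 with 1.93 and Bik with 0.264 FPKM. The lowest Bok library, at 56.4 FPKM, was above the highest Mcl1 library, at 44.0, and the lowest Mcl1 library, at 40.7, was above the highest Bad library, at 33.4. Ranges over the libraries overlapped for 3 pairs of neighbours in this order. Bad exceeded Bcl2l1 in 4 of 6 libraries, Bmf exceeded Bcl2l11 in 5, and Bcl2l11 exceeded Bcl2 in 3. The mean of Bmf was 1.52 times that of Bcl2l11, while those of the other two pairs differed by 1.06 and 1.15 times; these levels were not tested against each other.

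**Figure D1:**
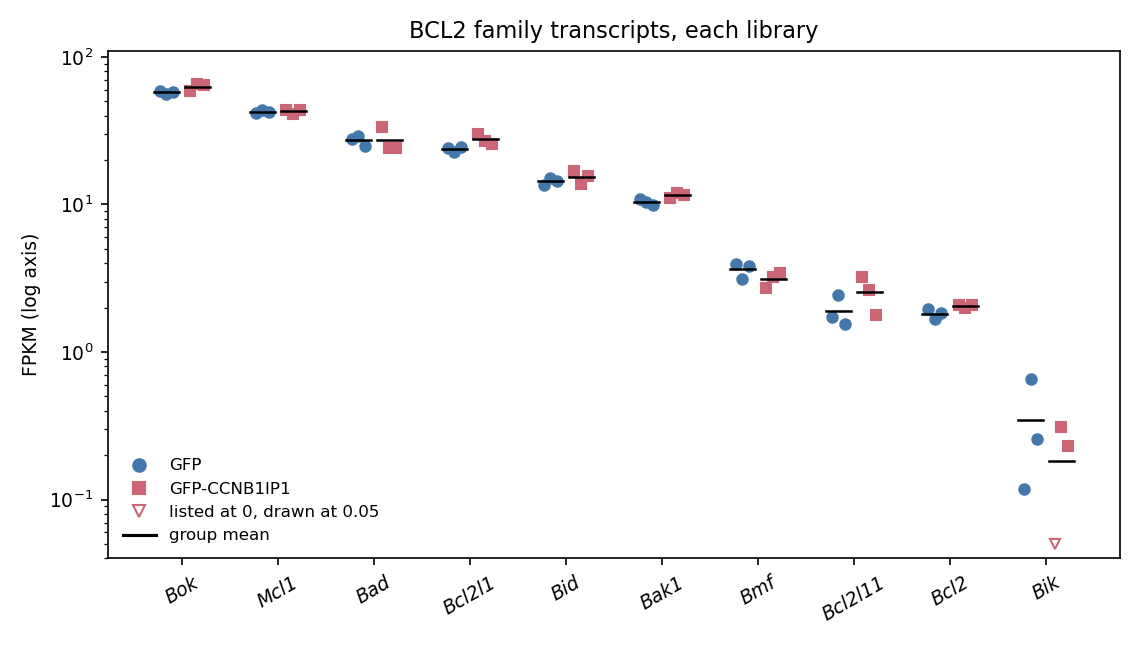
FPKM of the 10 BCL2 family genes on a log axis, ordered by mean level, with 1 point for each library (circles GFP, squares GFP-CCNB1IP1) and a line at each group mean. Bok and Mcl1 lie highest at 60.2 and 42.6 FPKM over all libraries, Bik lies lowest, and the open triangle marks the library in which Bik is listed at 0.

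None of the 9 tested genes passed the test between the groups (limma, adjusted p from 0.356 to 0.986 over all 13231 genes). Among all genes tested, 0.00756% were called higher and 0% lower. The smallest p-value in the family was that of Bcl2l1, with means of 23.8 ± 0.956 FPKM under GFP and 27.6 ± 2.33 FPKM under GFP-CCNB1IP1 (SD, n = 3). It was the 1 member at an unadjusted p under 0.05, which 5.59% of all genes reached in the higher direction and 5.77% in the lower. Log2 fold changes, here always on the log2(FPKM + 1) scale and for GFP-CCNB1IP1 against GFP, ran from -0.17 for Bmf to 0.28 for Bcl2l11, with a median of 0.11 over the 9 genes beside 0.0037 over all genes tested. They were positive for 7 of the 9, beside 51.4% of all genes. Bulk libraries cannot tell a change in the share of cells that hold a transcript from a change in its amount per cell.

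**Figure D2:**
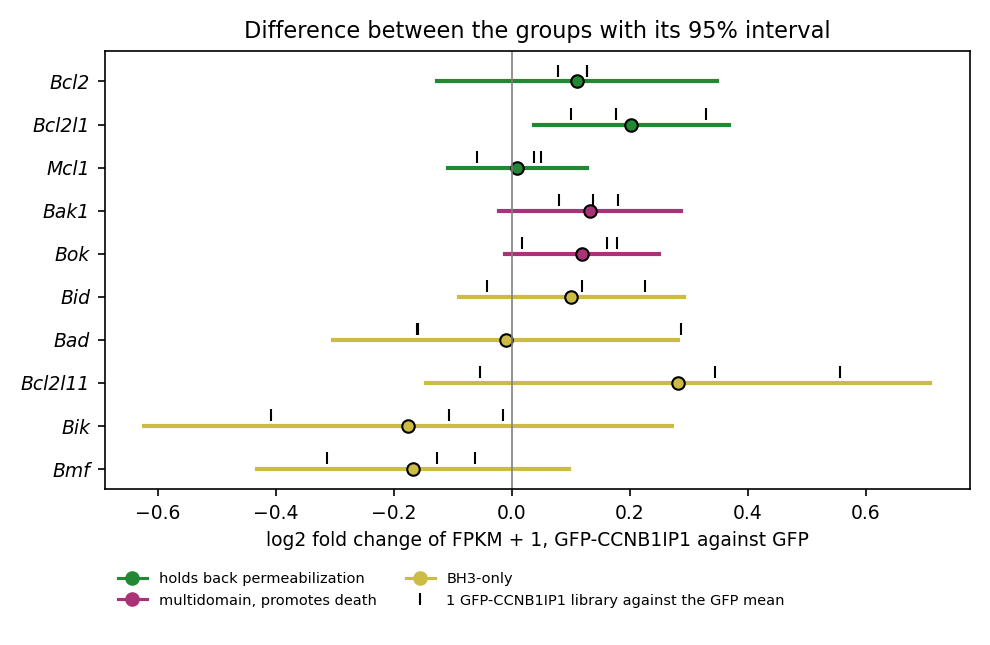
Log2 fold change of FPKM + 1 in GFP-CCNB1IP1 against GFP libraries for each gene (circle) with its 95% interval from limma (bar), coloured by the protein's role; ticks above each bar show the 3 GFP-CCNB1IP1 libraries against the GFP mean. The interval of Bcl2l1, from 0.037 to 0.37, lies above 0, and those of the other 9 genes include 0; no gene passed after adjustment over all genes.

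Among the protective genes, Bcl2l1 (ENSMUSG00000007659.19, chromosome 2, 152622588 to 152673648; the build behind these positions was not given in the sources used here) encodes BCL-xL and, by alternative splicing, a short product that favours death. The gene tables add the products together. It had 24.1, 22.8 and 24.6 FPKM in GFP replicates 1 to 3 and 30.2, 27.1 and 25.6 FPKM in GFP-CCNB1IP1 replicates 1 to 3. The groups did not overlap, and GFP-CCNB1IP1 replicate 1 was the highest library. The log2 fold change was 0.20 (SE 0.071; limma, adjusted p = 0.356), a ratio of 1.15 with a 95% interval from 1.03 to 1.29. Without GFP-CCNB1IP1 replicate 1 the log2 fold change of Bcl2l1 was 0.14 (limma, adjusted p = 0.582).

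Mcl1 (ENSMUSG00000038612.17, chromosome 3, 95566099 to 95570487), whose protein is short-lived and needs constant synthesis, was the steadiest of the abundant members. The libraries had 41.9, 43.4 and 42.1 FPKM with GFP and 44.0, 40.7 and 43.6 FPKM with GFP-CCNB1IP1. The GFP libraries lay within the range of the GFP-CCNB1IP1 libraries, and the highest library was 1.08 times the lowest. Its ratio between the groups was 1.01, with a 95% interval from 0.928 to 1.09, so the data leave room for a difference of that width (limma, adjusted p = 0.969).

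Bcl2 (ENSMUSG00000057329.8, chromosome 1, 106465908 to 106642004), the founding gene of the family, was low in these libraries, above only 10.2% of the genes tested. It had 1.95, 1.66 and 1.85 FPKM under GFP, and 2.08, 1.98 and 2.08 FPKM under GFP-CCNB1IP1. The groups lay close together without overlapping. Its log2 fold change was 0.11 (SE 0.10; limma, adjusted p = 0.725), and the 95% interval ran from -0.13 to 0.35. It was 0.070 without GFP replicate 2, the lowest library, and ran from 0.047 to 0.16 with pseudocounts of 5 and 0.1. Bcl2l1 had from 12.3 to 14.5 times the FPKM of Bcl2 in single libraries, and Mcl1 from 20.6 to 26.1 times.

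Of the multidomain genes that promote death, Bok (ENSMUSG00000026278.15, chromosome 1, 93613382 to 93623486) had 58.4, 56.4 and 58.2 FPKM under GFP and 58.3, 65.4 and 64.6 FPKM under GFP-CCNB1IP1. GFP-CCNB1IP1 replicate 1 sat among the GFP libraries, so the groups overlapped, while the other two were higher. The log2 fold change was 0.12 (SE 0.056; limma, adjusted p = 0.479). Bak1 (ENSMUSG00000057789.15, chromosome 17, 27238784 to 27247983), a pore former held on mitochondria, had 10.9, 10.4 and 9.93 FPKM with GFP and 11.1, 11.9 and 11.6 with GFP-CCNB1IP1. Its groups did not overlap, with a gap of under 1 FPKM between the nearest libraries, and the log2 fold change was 0.13 (SE 0.067; limma, adjusted p = 0.505). Bok and Bak1 were both highest in GFP-CCNB1IP1 replicate 2, the shallowest library and the one with leukocyte transcripts. Without that library the log2 fold changes were 0.089 for Bok and 0.11 for Bak1, and without GFP-CCNB1IP1 replicate 1 they were 0.17 and 0.16 (limma, adjusted p = 0.442 and 0.589).

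Bax, the soluble pore former and no member of the 10, gave a measure of how high Bok stood. It had 53.0 ± 1.78 FPKM under GFP and 55.7 ± 1.48 under GFP-CCNB1IP1 (SD, n = 3; limma, adjusted p = 0.628). Bok had from 1.03 to 1.19 times the FPKM of Bax in each library, and Bax had from 4.68 to 5.44 times that of Bak1. The levels of Bok and Bax were thus close in all 6 libraries, and both were well above Bak1.

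The BH3-only gene Bad (ENSMUSG00000024959.15, chromosome 19, 6919229 to 6929267), whose protein is kept inactive by growth factor signalling through phosphorylation, had 28.0, 29.1 and 24.7 FPKM under GFP. Under GFP-CCNB1IP1 it had 33.4, 24.3 and 24.3 FPKM. That group held both the highest library and the lowest, and the means of Bad were 27.3 ± 2.28 FPKM under GFP and 27.3 ± 5.28 FPKM under GFP-CCNB1IP1 (SD, n = 3). The ratio of 0.992 had a 95% interval from 0.811 to 1.22 (limma, adjusted p = 0.986). Without GFP-CCNB1IP1 replicate 1 the log2 fold change of Bad was -0.16 (limma, adjusted p = 0.604), and without GFP-CCNB1IP1 replicate 3 it was 0.064. The gene model of Gpr137, at 32.7 FPKM, overlaps that of Bad, and with no strand stated their reads may not be separable there.

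Bid (ENSMUSG00000004446.13, chromosome 6, 120868891 to 120893814) links death receptors to mitochondria, its protein being cut by caspase-8. It had 13.55, 15.02 and 14.4 FPKM with GFP and 16.9, 13.9 and 15.6 FPKM with GFP-CCNB1IP1. The groups overlapped, and the log2 fold change was 0.10 (SE 0.082; limma, adjusted p = 0.690). It was 0.17 without GFP-CCNB1IP1 replicate 2 and 0.038 without GFP-CCNB1IP1 replicate 1. Its locus overlaps that of the family gene Bcl2l13, which had 27.9 FPKM over the 6 libraries.

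Bcl2l11 (ENSMUSG00000027381.17, chromosome 2, 127967958 to 128004467) encodes BIM, a BH3-only protein known for its part in the death of neurons that lose growth factor. The libraries had 1.72, 2.44 and 1.54 FPKM with GFP and 3.23, 2.65 and 1.77 FPKM with GFP-CCNB1IP1. Levels varied more within groups than for any other tested member, with coefficients of variation of 24.9% and 28.8%, and GFP replicate 2 lay above GFP-CCNB1IP1 replicate 3. The log2 fold change of 0.28 was the largest positive one in the family, and its 95% interval ran from -0.14 to 0.71 (limma, adjusted p = 0.614). It was 0.15 without GFP-CCNB1IP1 replicate 1 and 0.45 without GFP-CCNB1IP1 replicate 3.

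Bmf (ENSMUSG00000040093.17, chromosome 2, 118359238 to 118380168), whose protein is tethered to the actin cytoskeleton through a dynein light chain, had 3.97, 3.14 and 3.82 FPKM with GFP. With GFP-CCNB1IP1 it had 2.73, 3.24 and 3.43 FPKM. GFP replicate 2 fell within the range of the other group, and the log2 fold change was -0.17 (SE 0.11; limma, adjusted p = 0.627). Leaving out GFP replicate 2 gave -0.25 for Bmf, and leaving out GFP-CCNB1IP1 replicate 1 gave -0.094. From 25.9 to 56.0 fragments, as implied by the deposited intervals, stood behind each value.

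Bik (ENSMUSG00000016758.5, chromosome 15, 83411063 to 83428835), a BH3-only gene whose protein sits mainly at the endoplasmic reticulum, was near the lower limit of detection. It had 0.117, 0.662 and 0.257 FPKM with GFP, and 0, 0.313 and 0.232 FPKM with GFP-CCNB1IP1. Between 0 and 7.0 implied fragments lay behind these values, too few to show a difference at this depth. When all 26841 genes with any value above 0 were fitted, its log2 fold change was -0.18 (SE 0.18; limma, adjusted p = 0.778). With libraries left out in turn it ran from -0.30 without GFP replicate 1 to -0.014 without GFP replicate 2, and at a pseudocount of 0.1 it was -0.70.

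The groups did not overlap for 3 of the 9 tested members, Bcl2, Bcl2l1 and Bak1, all higher in the GFP-CCNB1IP1 libraries. Among all genes tested, 8.70% were higher without overlap and 8.90% lower. One library took many of the highest values: Bcl2, Bcl2l1, Mcl1, Bid, Bad and Bcl2l11, or 6 of the 9, were highest in GFP-CCNB1IP1 replicate 1, where 21.4% of all genes had their highest value. Some of these leads were slight. Bcl2 had 2.0777 FPKM there and 2.077 in GFP-CCNB1IP1 replicate 3, and Mcl1 had 44.0 and 43.6 FPKM. GFP-CCNB1IP1 replicate 1 also had the lowest Bmf and the Bik value of 0. No test was made of either count over the members.

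**Figure D3:**
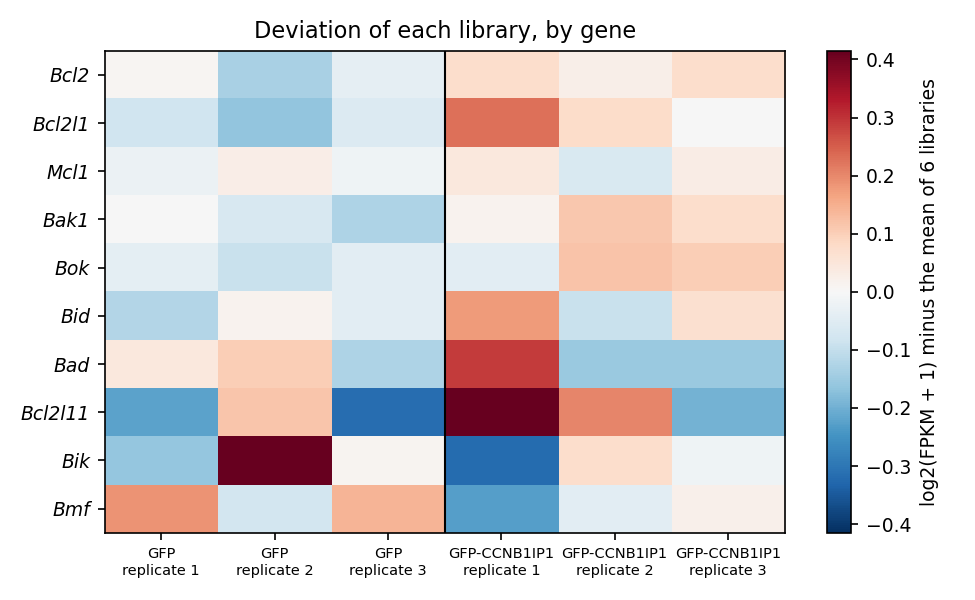
Deviation of each library from the gene's mean over the 6 libraries on the log2(FPKM + 1) scale, genes in rows and libraries in columns, with a line between the groups; red is higher and blue lower. In GFP-CCNB1IP1 replicate 1 Bcl2l11 stood 0.41, Bad 0.29 and Bcl2l1 0.23 above their means, while Bmf stood at -0.23.

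The members also differed in how far replicates spread. Bad had a residual SD of 0.20 on the log2 scale, more than 96.6% of the 3494 tested genes between 20 and 100 FPKM, where the median was 0.080. Bcl2l11, at 0.27, exceeded 82.8% of the 3706 genes between 1 and 5 FPKM, where the median was 0.16. Bcl2, of similar level to Bcl2l11, had 0.056 and exceeded only 4.61% of those genes, and Mcl1, at 0.046, exceeded 15.1% of genes in its band. These bands group genes by FPKM and not by fragments. From 206 to 292 implied fragments stood behind the Bcl2 values, and from 30.6 to 92.3 behind those of Bcl2l11. How much of their difference in spread comes from this was not tested. Intervals of 2 standard errors to each side were rebuilt from the deposited upper bounds and cover the uncertainty of 1 library's reads. They did not overlap in 2 of the 6 pairs of libraries of 1 group for Bad. The count was 1 for Bcl2l11 and 0 for the other 7 tested members. Of the 9 pairs between groups they were separate in 3 for Bcl2l1, 2 for Bok, 2 for Bcl2l11, 1 for Bid and 1 for Bad. The count was 0 for Bcl2, Mcl1, Bak1 and Bmf, although the groups of Bcl2 and Bak1 did not overlap in FPKM.

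The 10 genes together had sums of 184.6, 185.0 and 181.4 FPKM under GFP and 201.9, 191.4 and 192.7 FPKM under GFP-CCNB1IP1. Every GFP-CCNB1IP1 sum was above every GFP sum, and no test was made of this sum over chosen genes. Abundant genes weigh most in the sum, and the groups of Bok, the most abundant, overlapped. Group means of the makeup by role moved little. Bcl2, Bcl2l1 and Mcl1 took 37.1% ± 0.602 of the sum under GFP and 37.1% ± 0.664 under GFP-CCNB1IP1 (SD, n = 3). Bok and Bak1 took 37.1% ± 0.841 and 38.1% ± 3.25, and the 5 BH3-only genes 25.8% ± 1.31 and 24.8% ± 2.62. In GFP-CCNB1IP1 replicates 1 to 3 the share of Bok and Bak1 was 34.4, 40.4 and 39.5%. That of the BH3-only genes was 27.9, 23.2 and 23.5%. Within the protective genes, Mcl1 had 1.73, 1.91 and 1.71 times the FPKM of Bcl2l1 with GFP and 1.46, 1.51 and 1.70 times with GFP-CCNB1IP1. The ranges of this ratio were separated by a margin far smaller than the spread within either group.

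**Figure D4:**
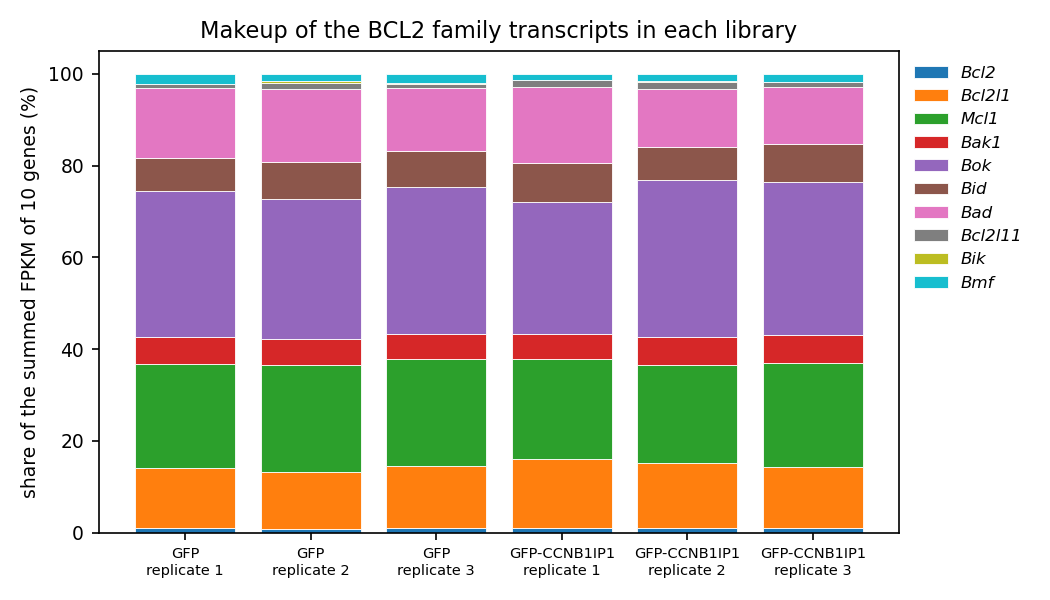
Share of each gene in the summed FPKM of the 10 BCL2 family genes, as stacked bars from 0 to 100%, with 1 bar for each library. Bok took from 28.9 to 34.2% and Mcl1 from 21.3 to 23.5% of the sum, and the protective genes together took from 36.4 to 37.8% in every library.

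Other genes of the pathway, from lists written down for this comparison, showed where the 10 members stand. Of 15 further family genes 7 were measured above the filter, with 5 positive and 2 negative log2 fold changes, a median of 0.046, and 0 that passed (limma; 0 at an unadjusted p under 0.05). Bbc3, the gene of the BH3-only protein PUMA, had 20.1 ± 1.71 and 20.7 ± 1.16 FPKM under GFP and GFP-CCNB1IP1 (SD, n = 3). Bcl2l2, which encodes the protective BCL-w, had 11.9 ± 1.15 and 12.0 ± 0.457. Bcl2l2 thus stood 6.19 times as high as Bcl2 over the 6 libraries. Bcl2l13 had 29.1 ± 4.53 and 26.7 ± 2.15 FPKM, and Bcl2l12 had 1.53 ± 0.420 and 2.04 ± 0.707. The mitophagy receptors Bnip3 and Bnip3l had 23.9 ± 3.65 and 27.1 ± 2.81, and 39.7 ± 4.50 and 37.0 ± 2.52 FPKM. Hrk was below 1 FPKM in every library, Pmaip1, the gene of NOXA, reached at most 0.025 FPKM, and Bcl2l10, Bcl2a1a and Bcl2a1d were listed at 0 in all libraries.

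All 11 genes of caspases, the apoptosome and released mitochondrial factors were measured, and 0 passed (limma). At an unadjusted p under 0.05, 1 was lower and 0 were higher. The lower one was Casp2, an initiator caspase, with 20.4 ± 1.74 and 17.9 ± 0.409 FPKM under GFP and GFP-CCNB1IP1 (limma, adjusted p = 0.414). Diablo, which relieves inhibition of caspases, had 31.8 ± 1.75 and 28.9 ± 2.19 FPKM. Cycs, the cytochrome c gene, had 48.8 ± 3.66 and 52.7 ± 0.503 FPKM. Aifm1 had 3.83 ± 0.364 and 4.42 ± 0.379. Fold changes of both signs thus occurred within the list, 7 positive and 4 negative.

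Inhibitors of apoptosis gave 8 measured genes of 9, of which 0 passed (limma; at an unadjusted p under 0.05, 1 higher and 2 lower). Naip2, a cytosolic sensor of bacterial proteins, had 7.63 ± 0.0366 and 9.32 ± 0.454 FPKM (limma, adjusted p = 0.272); it belongs to a cluster of near-identical copies, so the division of its reads is uncertain. Birc2, which encodes the ubiquitin ligase cIAP1, had 8.80 ± 0.616 and 7.48 ± 0.239 FPKM, and Birc5, the mitotic gene of survivin, had 36.8 ± 3.63 and 31.3 ± 2.65. Birc3 had 5.003 ± 1.48 and 5.97 ± 0.884 FPKM, and Naip6 had 6.58 ± 0.406 and 6.11 ± 0.174.

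In the death receptor arm 6 of 8 genes were measured, their median log2 fold change was 0.018, and 0 passed (limma; 0 at an unadjusted p under 0.05). Casp8, whose product cuts BID, had 6.71 ± 0.698 and 6.86 ± 0.365 FPKM, and the adaptor gene Tradd had 8.44 ± 1.10 and 9.66 ± 0.332. Tnfrsf1a, a tumour necrosis factor receptor, had 42.8 ± 4.20 and 44.2 ± 1.12 FPKM. Ripk1 had 3.58 ± 0.561 and 3.38 ± 0.0818, and Cflar, which holds back caspase-8, had 4.26 ± 0.425 and 4.11 ± 0.283. The receptor gene Fas stayed below 0.5 FPKM.

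Among 16 genes of proteins that bind, tether or degrade family members, all were measured, 7 had positive and 9 negative log2 fold changes, and 0 passed (limma; 3 higher and 0 lower at an unadjusted p under 0.05). Those 3 were Ywhaz, Vdac3 and Ywhag. Among all genes tested, 5.59% were higher at that unadjusted p. Ywhaz and Ywhag encode 14-3-3 proteins, the family that retains phosphorylated BAD in the cytosol. The 14-3-3 genes Ywhab, Ywhah, Ywhae and Ywhaq had log2 fold changes of 0.066, 0.053, -0.0031 and -0.028. Ywhaz had 175.9 ± 2.46 and 195.4 ± 0.836 FPKM (limma, adjusted p = 0.270), and Ywhag had 180.1 ± 5.75 and 193.4 ± 1.03. Vdac3, a channel gene of the outer mitochondrial membrane, had 102.7 ± 1.91 and 110.4 ± 0.455 FPKM. Sfn, a further 14-3-3 gene, had 1.60 ± 0.340 and 1.03 ± 0.284 FPKM, and Usp9x, whose enzyme protects MCL1 from degradation, had 30.3 ± 3.02 and 33.9 ± 2.52.

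**Figure D5:**
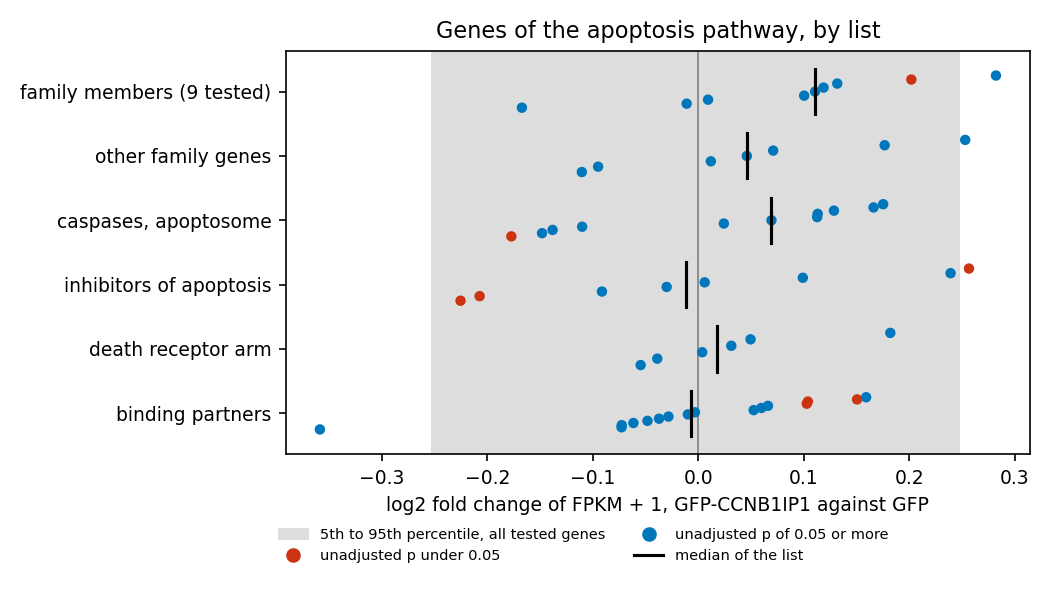
Log2 fold change of FPKM + 1 in GFP-CCNB1IP1 against GFP libraries for the tested genes of each list (points; red marks an unadjusted p under 0.05), with the list median (black line) and the span from the 5th to the 95th percentile of all tested genes (grey, -0.25 to 0.25). Of the 9 tested family members only Bcl2l11 lies outside the grey span, and no gene shown passed after adjustment.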

How the data were processed

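The authors deposited 1 gene table per library with FPKM and the bounds of a confidence interval, per the file headers; the submitters' processing notes name HISAT2 and Cufflinks, with no version. Genome build, annotation release and strand: not given in the sources used here. Rows of 1 identifier were summed (38 identifiers), and starts, read as counted from 0, are given from 1. Genes with a mean of at least 1 FPKM were tested on log2(FPKM + 1) with limma 3.58.1 in R 4.3.3 (mean-variance trend, no block, Benjamini-Hochberg adjustment over 13231 genes, calls at an adjusted p under 0.05). The test was checked on simulated data, with changes larger than those of the tested members and in genes more abundant than Bcl2, Bcl2l11 and Bmf. That check does not show whether changes as small as those of the members would be found. An exact permutation test of 3 against 3 cannot go below p = 0.1 and was not used. Implied fragments are the squared ratio of FPKM to its standard error, taking the upper bound as 2 standard errors above; read totals were not given, so the depth itself is unknown. Named genes are the 10 members, family genes of at least 1 FPKM, and up to 5 genes per other list with the smallest p-values, some of which are not reported here; the others named were chosen after their values were seen. Members and lists were chosen with earlier results of these data known.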

Additional observations from a re-analysis of the deposited data

How the results depend on the processing

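Over 16 alternative settings the 10 genes gave 155 log2 fold changes, of which 147 kept their sign, 8 changed it and 0 passed the test (lowest limma adjusted p = 0.317). The changes of sign were those of genes near 0: Mcl1 was at -0.0020 after rescaling to TPM and from -0.011 to 0.043 with each library left out in turn, and Bad ran from -0.16 to 0.064 with each library left out. The count of genes called higher, 1 as reported, was 0 at a pseudocount of 5, 0 when no genes were filtered, 0 without the trend and from 0 to 2 with each library left out. The count called lower, 0 as reported, was from 0 to 2 with each library left out. With the replicate number as a block, 0 genes were called. Same-numbered libraries had correlations of their deviations of 0.023, -0.0093 and -0.011, so no shared deviation by number was seen. These correlations cannot show whether same-numbered libraries were prepared together. With a mean of at least 5 FPKM, Bcl2, Bcl2l11 and Bmf left the test. The cause of these changes was not tested. Median-of-ratios scaling, quantile normalization and TPM moved the median of all genes by less than 0.1 on the log2 scale.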
